A study of Mus musculus with 7 samples.

Results

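The AP-1 genes described here are Fos, Fosb, Fosl1, Fosl2, Jun, Junb, Jund, Batf and Atf3, which encode the Fos and Jun families together with Batf and Atf3. They were found by matching the mouse Entrez numbers of the deposited table to these 9 symbols. All 9 were present among the 27179 genes of the table, and all 9 passed the filter of a mean of at least 1 FPKM that left 13418 genes for testing. FPKM scales reads to the length of the joined exons and to the assigned reads of the library, so levels can be compared between genes as well as between libraries. The libraries came from whole ankles, skinned before extraction, of the DBA1 mouse strain in a model of rheumatoid arthritis, in which immunisation against collagen makes the joints swell and erode. Each ankle had received, by injection into the joint, a lipoplex (a lipid carrier) with either a miR-17-5p mimic (n = 4, replicates 1, 2, 4 and 5) or an irrelevant microRNA (n = 3, replicates 2, 3 and 5). Both groups therefore carried the arthritis, the carrier and an injected small RNA, and uninjected or healthy ankles were not analysed here. Age, dose and the interval from injection to dissection were not stated in the labels. Nor do these state that each ankle is a different mouse. Every p-value hence reflects library-to-library spread, part of which may be technical.

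AP-1 is a transcription factor made of 2 proteins held together by a leucine zipper, and each protein grips one side of a short DNA element. Jun proteins pair with each other or with Fos proteins, whereas Fos proteins need a Jun partner. Fos, Fosb, Jun, Junb and Atf3 are switched on by growth factors, cytokines or stress, while Jund is made more steadily. In inflamed joints AP-1 is known as a driver of matrix metalloproteinase and cytokine genes, and Fos is required to form osteoclasts, the cells that resorb bone. The comparison asks how these transcripts stood in arthritic ankles injected with the miR-17-5p mimic. The level of miR-17-5p itself was not analysed here.

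MicroRNAs pair with messenger RNAs mainly through bases 2 to 8, the seed. The mature miR-17-5p (RefSeq, GRCm38.p6, chr14:115043684-115043706, plus strand) is shown with its seed in capitals, since matches to it were sought in the AP-1 transcripts.

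miR-17-5p: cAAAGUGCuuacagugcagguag

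Complementary heptamers were sought in the longest 3 prime untranslated region of each gene (GENCODE release M21, GRCm38), as GCACTTT (opposite bases 2 to 8), as CACTTTA or as the octamer GCACTTTA. Of the 9 AP-1 genes, 2 held a heptamer, Fosl2 and Atf3, and 0 held the octamer. Among 12615 tested genes with such a region, 21.4% held at least 1 of these matches. The Fosl2 match lay at chr5:32156204-32156210 (plus strand), 3015 bases into a region of 4653 bases. The Atf3 match lay at chr1:191170524-191170530 (minus strand), 952 bases into 1186 bases. The stretches around both are given with the heptamer in capitals.

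Fosl2: ggcactatgagGCACTTTtctatttatcct

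Atf3: ggatgttaatgGCACTTTtgtcttgtagct

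Of these genes, Fosl2 had a log2 fold change (mimic minus control) of -0.44 and Atf3 one of -0.024. Over all tested genes the median log2 fold change was -0.0083 with a match and -0.0084 without.

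In ankles that had received miR-17-5p, transcripts of Junb, Fosl1, Fosl2 and Batf were lower in each of the 4 libraries than in any of the 3 control libraries. The groups overlapped for Jun, Jund and Atf3, with log2 fold changes of 0.098, 0.096 and -0.024. Fos and Fosb overlapped as well and varied widely within both groups. The mean level of Junb was 142 ± 26.9 FPKM (SD, n = 3) without the mimic and 79.8 ± 13.3 FPKM (SD, n = 4) with it, 56.0% of the control mean. Fosl1 averaged 8.67 ± 2.86 and 3.58 ± 1.35 FPKM, 41.3% of the control mean. None of the 9 genes passed limma's test over all genes at an adjusted p under 0.05, where 0% of 13418 genes passed.

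**Figure D1:**
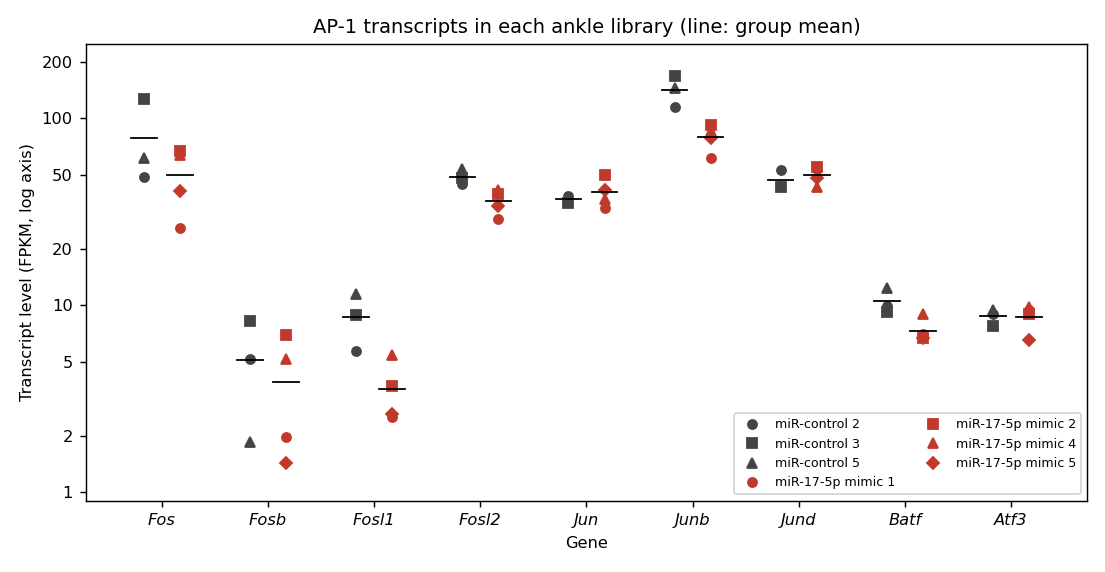
FPKM of the 9 AP-1 genes in each of the 7 libraries on a log axis, with controls in grey, mimic ankles in red, a marker shape for each library of a group and a line at each group mean. Junb, Fosl1, Fosl2 and Batf show no overlap between the groups, whereas Fos and Fosb spread widely within both.

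Before the results, the libraries themselves need a word. They held from 27465276 to 31118975 assigned reads, and each AP-1 gene had at least 130 reads in each library, from Fosl1 in mimic replicate 5 up to 9689 reads for Fosl2. Defining genes of the joint were present, with Prg4 (lubricin of the synovial lining) at 859 FPKM or more and Col2a1 (cartilage collagen) at 26.5 FPKM or more in every library. Control replicate 5 held skin transcripts although the skin is labelled as removed. In that library 9 of 10 keratinocyte markers were at their highest, their summed level was 92.6 FPKM against 5.50 to 6.30 FPKM in the other libraries, and Krt1 stood at 27.3 FPKM against 0.0788 FPKM at most elsewhere. Krt14, of the basal epidermis, was 13.8 FPKM there and listed at 0 in control replicates 2 and 3. The summed level of 12 neutrophil markers was 3213 to 6567 FPKM in controls and 1376 to 3541 FPKM in mimic ankles, and that of 10 muscle markers 865 to 5351 and 2120 to 7802 FPKM. No marker of these 3 lists was at 0 in all libraries. Fits of the AP-1 genes with these marker levels as covariates are given further on. In whole tissue, fewer cells of a type and less RNA per cell cannot be told apart.

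Among the Jun family, Junb was the most abundant AP-1 transcript in every library. Junb (Entrez 16477, mm10 chr8:84976909-84978748, minus strand, a single exon of 1840 bases) encodes a Jun protein that often restrains growth and takes part in cytokine and skin biology. It stood at 114, 168 and 145 FPKM in control replicates 2, 3 and 5, and at 61.7, 92.7, 85.8 and 78.9 FPKM in mimic replicates 1, 2, 4 and 5. The lowest control thus lay above the highest mimic library. On log2(FPKM + 0.5) the difference, mimic minus control, was -0.83 (SE 0.17, limma adjusted p = 0.174). Without control replicate 2, the control with the least Junb, it was -0.98 and passed over all genes (limma adjusted p = 0.0470). In that fit 202 of 13422 genes, 1.5%, were called lower. Junb was the 1 AP-1 gene called there, and it was called in no other fit.

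Jun (Entrez 16476, chr4:95049036-95052222, minus strand, a single exon of 3187 bases), the founding member of the family and a strong activator, behaved differently. It stood at 38.3, 35.45 and 38.0 FPKM in controls, and at 33.0, 50.002, 37.1 and 41.3 FPKM in mimic ankles. The controls were close together and lay within the range of the mimic libraries, of which replicate 1 was the lowest and replicate 2 the highest of all 7. The log2 fold change was 0.098 (SE 0.13, 95% interval -0.21 to 0.41, limma adjusted p = 0.703), and it was -0.0094 without mimic replicate 2. Jund (Entrez 16478, chr8:70697739-70700616, plus strand, a single exon of 2878 bases), the steadily made member, stood at 53.0, 43.2 and 43.6 FPKM in controls. In mimic ankles it stood at 53.5, 55.0, 42.7 and 48.2 FPKM, so the groups overlapped. Its log2 fold change was 0.096 (SE 0.11, 95% interval -0.17 to 0.36, limma adjusted p = 0.661). The highest Jund library exceeded the lowest by 1.29-fold, the narrowest range of the 9 genes.

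The promoters of Junb, Jun and Fos are shown as those of the most abundant member, of a Jun gene whose groups overlapped and of the classical inducible gene. The windows run from 250 bases before to 50 bases after the RefSeq start (GRCm38.p6), and 8 of the 9 genes matched a window. Capitals mark TGACG, one side of the cyclic AMP response element TGACGTCA, on either strand, and TGACATCA, the variant element of the Jun promoter. The Fos window is chr12:85473640-85473939 (plus strand), the Junb window chr8:84978699-84978998 (minus strand) and the Jun window chr4:95052173-95052472 (minus strand).

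Fos: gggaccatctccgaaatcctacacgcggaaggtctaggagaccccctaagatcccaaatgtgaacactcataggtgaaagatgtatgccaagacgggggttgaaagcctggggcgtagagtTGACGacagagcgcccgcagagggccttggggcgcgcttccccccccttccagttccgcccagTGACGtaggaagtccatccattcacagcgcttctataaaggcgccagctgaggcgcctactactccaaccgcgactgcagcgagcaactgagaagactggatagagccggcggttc

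Junb: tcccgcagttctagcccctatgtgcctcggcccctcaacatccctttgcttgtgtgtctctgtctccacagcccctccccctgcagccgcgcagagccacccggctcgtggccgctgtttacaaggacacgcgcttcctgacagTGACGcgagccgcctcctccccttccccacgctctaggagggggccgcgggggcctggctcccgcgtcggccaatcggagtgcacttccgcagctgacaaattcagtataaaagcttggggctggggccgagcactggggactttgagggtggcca

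Jun: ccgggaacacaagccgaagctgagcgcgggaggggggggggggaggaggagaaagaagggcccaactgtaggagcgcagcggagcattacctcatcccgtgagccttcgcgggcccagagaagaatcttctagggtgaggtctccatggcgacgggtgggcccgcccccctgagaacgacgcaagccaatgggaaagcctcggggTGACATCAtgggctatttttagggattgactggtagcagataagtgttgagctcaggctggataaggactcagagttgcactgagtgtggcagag

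TGACG stood at -66 to -62 and -129 to -125 in Fos and at -106 to -102 in Junb, counted from the start with no base 0. The octamer TGACATCA stood at -45 to -38 in Jun. TGACG was also found in Fosb, Batf and, on the other strand, Atf3, so 5 of 8 genes held it, against 20.8% of all 32851 windows of the same length. G and C made up 58.7% of the Fos window, 68.3% of Fosb, 65.3% of Junb, 49.7% of Batf and 64.7% of Atf3. They made up 64.7% of Fosl2, 60% of Jun and 46.7% of Jund, where the median of all windows was 52.7%. The motif shares were not adjusted for this. TGACATCA was found in 1 of 8, against 3.62% of windows. The full TGACGTCA (1.79% of windows), the AP-1 element TGANTCA (7.81%) and the CArG box bound by serum response factor (1.63%) were in 0 of the 8 windows. Elements more than 250 bases before the start lay outside the windows and were not searched, so these genes may hold them there. The CCAAT motif was in Jun, Junb and Atf3. TATAAA was in Fos, at -33 to -28, and in Junb, at 1 to 6, on the RefSeq start itself. Fosl2 and Jund held none of the 7 motifs. TGACGTCA contains TGACG, so these searches overlap. A match describes letters in a window and says nothing of binding.

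**Figure D2:**
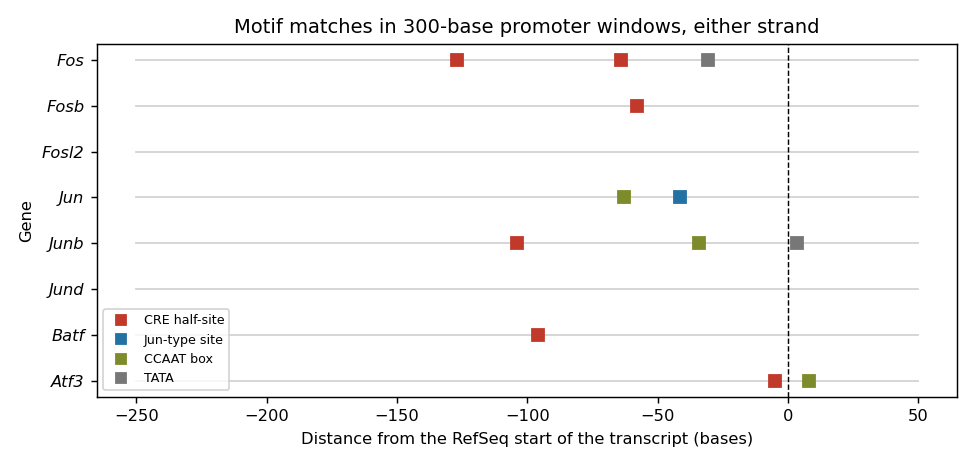
Positions of motif matches, on either strand, in the 300-base windows of 8 AP-1 genes, plotted as the distance in bases from the RefSeq start, with 1 row per gene and 1 colour per motif. TGACG appears in Fos, Fosb, Junb, Batf and Atf3, and the rows of Fosl2 and Jund are empty.

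In the Fos family, the 2 Fos-related antigens differed between the groups without overlap, while Fos and Fosb did not. Fosl1 (Entrez 14283, chr19:5447698-5455938, plus strand, 4 exons) encodes Fra-1, a Fos protein that promotes bone formation and invasion and lacks the strong activation domain of Fos. It stood at 5.72, 8.86 and 11.4 FPKM in controls, and at 2.53, 3.71, 5.44 and 2.63 FPKM in mimic ankles. The gap between the groups was narrow, since control replicate 2 lay just above mimic replicate 4. Its log2 fold change was -1.17 (SE 0.29, limma adjusted p = 0.176), the largest of the 9 genes in size. The level of Fosl1 is uncertain, because 1155 of its 1705 exonic bases overlap exons of Ccdc85b on the opposite strand and the strand setting of the counting is not given. Fosl2 (Entrez 14284, chr5:32136472-32157840, plus strand, 4 exons) encodes Fra-2, which acts in bone and cartilage cells and in fibrosis. It stood at 44.5, 48.3 and 53.6 FPKM in controls, and at 28.8, 39.5, 41.4 and 34.1 FPKM in mimic ankles. The groups did not overlap, and the log2 difference was -0.44 (SE 0.13, adjusted p = 0.196 by limma).

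Fos itself (Entrez 14281, chr12:85473901-85477269, plus strand, 4 exons), the classical immediate early gene, stood at 48.4, 127 and 61.1 FPKM in control ankles. In mimic ankles it stood at 26.1, 67.2, 63.7 and 41.0 FPKM. Control replicate 3 stood apart at the top, and mimic replicates 2 and 4 exceeded the other two controls. The log2 fold change of -0.64 had an SE of 0.42 and a 95% interval from -1.62 to 0.35 (limma adjusted p = 0.450). It was -0.23 without control replicate 3, -0.36 without mimic replicate 1 and -0.92 without control replicate 2. Fosb (Entrez 14282, chr7:19302696-19310045, minus strand, 4 exons), an inducible relative with a long-lived splice form known from the brain, ranged most widely. It stood at 5.16, 8.24 and 1.86 FPKM in controls and at 1.97, 6.96, 5.18 and 1.44 FPKM in mimic ankles, a 5.72-fold range over the 7 libraries. Control replicate 3 was the highest for both Fos and Fosb, followed by mimic replicates 2 and 4 in that order. The log2 fold change of Fosb was -0.37 (SE 0.60, limma adjusted p = 0.749), and it was 0.046 without control replicate 3 and -0.90 without control replicate 5.

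Batf (Entrez 53314, chr12:85686720-85709087, plus strand, 3 exons) pairs with Jun proteins and works with IRF factors in lymphocytes and dendritic cells. It stood at 9.96, 9.26 and 12.4 FPKM in controls, and at 7.03, 6.65, 8.94 and 6.67 FPKM in mimic ankles. The groups did not overlap, although control replicate 3 and mimic replicate 4 were close. For Batf the log2 fold change was -0.50 (SE 0.13, limma adjusted p = 0.176). Of 8 T cell genes tested, 6 had lower means, against 51.7% of all genes tested. Of these 8 genes 0 had an unadjusted p under 0.05, and their median log2 fold change was -0.096. T cell markers were low, with sums over 10 genes of 24.8 to 29.8 FPKM in controls and 20.9 to 32.8 FPKM in mimic ankles. All 8 tested genes of B and plasma cells had higher means (median 0.32). The part of these cells in the level of Batf was not tested. Atf3 (Entrez 11910, chr1:191170296-191183333, minus strand, 4 exons), a stress-induced member of the ATF/CREB family, stood at 9.03, 7.77 and 9.42 FPKM in controls. In mimic ankles it stood at 9.38, 8.94, 9.77 and 6.53 FPKM, with the overall highest and lowest values both in this group. Its log2 fold change was -0.024 (SE 0.14, 95% interval -0.35 to 0.31, limma adjusted p = 0.939).

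Counted together, 7 of the 9 genes had a lower log2 mean in the mimic ankles, against 51.7% of all genes tested, and the median log2 fold change of the 9 was -0.44 against -0.0063 over all genes tested. The median was -0.23 without control replicate 3. The groups did not overlap at 4 of 9 genes, all lower in mimic ankles, where 8.84% of all genes tested were lower and 6.48% higher without overlap. The same 4 genes had an unadjusted p under 0.05, a mark reached by 10.1% of all genes as lower and 7.48% as higher. No AP-1 gene was higher by either rule. These genes were chosen with earlier results of these data known, so the counts describe the 9 genes and are no independent evidence.

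**Figure D3:**
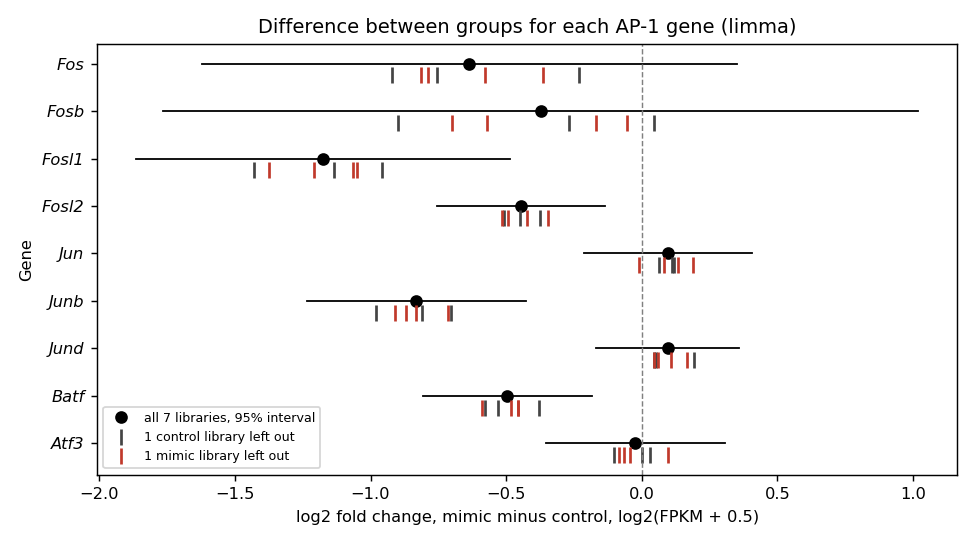
The log2 fold change (mimic minus control, on log2(FPKM + 0.5)) of each AP-1 gene from limma, with its 95% interval as a line, and ticks below it for the fits with 1 library left out. The intervals of Junb (-1.23 to -0.43), Fosl1 (-1.86 to -0.48), Batf and Fosl2 lie below 0, and those of the other 5 genes include 0.

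Without control replicate 5, the library with keratinocyte transcripts, the log2 fold changes were -0.81 for Junb, -0.96 for Fosl1, -0.38 for Fosl2 and -0.38 for Batf, each at an unadjusted p under 0.05 by limma. With the mean of the neutrophil markers as a covariate they were -0.76, -0.97, -0.43 and -0.47, and with that of the muscle markers -0.84, -0.94, -0.42 and -0.38. Fos was at -0.34 with the neutrophil and -0.75 with the muscle covariate, and Fosb at 0.12 and -0.80. The 12 neutrophil markers differed unequally, with log2 fold changes from -1.43 to -0.013 and 2 of 12 lower without overlap. Their mean may therefore follow only part of the difference in neutrophil transcripts. Sums of 10 adipocyte markers did not overlap between the groups, at 619 to 1083 FPKM in controls and 1191 to 1555 FPKM in mimic ankles. Those of 10 osteoblast and osteocyte markers did not either, at 7309 to 7659 and 8075 to 8685 FPKM. Most of the latter sums was Col1a1 alone, at 6672 to 6846 FPKM in controls and 7055 to 7535 FPKM in mimic ankles. The mean log2 level of the same 10 markers overlapped, at 4.80 to 5.94 in controls and 5.81 to 6.21 in mimic ankles. Of these markers, 3 were higher without overlap. For comparison with these marker counts, 51.7% of all genes tested had lower means in mimic ankles. Without overlap, 8.84% were lower and 6.48% higher. Of 10 cartilage markers 9 had higher means in mimic ankles, with overlapping sums. Of 12 macrophage and monocyte markers 9 had lower means, 2 of them without overlap, again with overlapping sums, and no fit used them as a covariate. The part of these cell types in the AP-1 differences was not tested.

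Levels per length gave the make-up of AP-1 in the joint. Junb made up 36.7% ± 1.82 (SD, n = 3) of the summed FPKM of the 9 genes in controls and 28.6% ± 1.19 (SD, n = 4) in mimic ankles. The share was 34.8, 36.9 and 38.5% in controls and 27.5, 28.0, 28.6 and 30.3% in mimic ankles, without overlap. Jun made up 7.77 to 11.7% in controls and 12.4 to 15.9% in mimic ankles, again without overlap. Fos made up 14.7 to 27.8% and 11.6 to 21.2%, and Jund 9.47 to 16.1% and 14.2 to 23.9%, both with overlapping groups. Fosl2 held a similar share in both groups, 12.8% ± 1.94 and 12.9% ± 0.76. Shares of one library add up to a whole, so they are not independent of each other. The sum over the 9 genes was 387 ± 64.4 FPKM in controls and 279 ± 46.4 FPKM in mimic ankles, overlapping by mimic replicate 2 (331 FPKM) and control replicate 2 (329 FPKM).

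**Figure D4:**
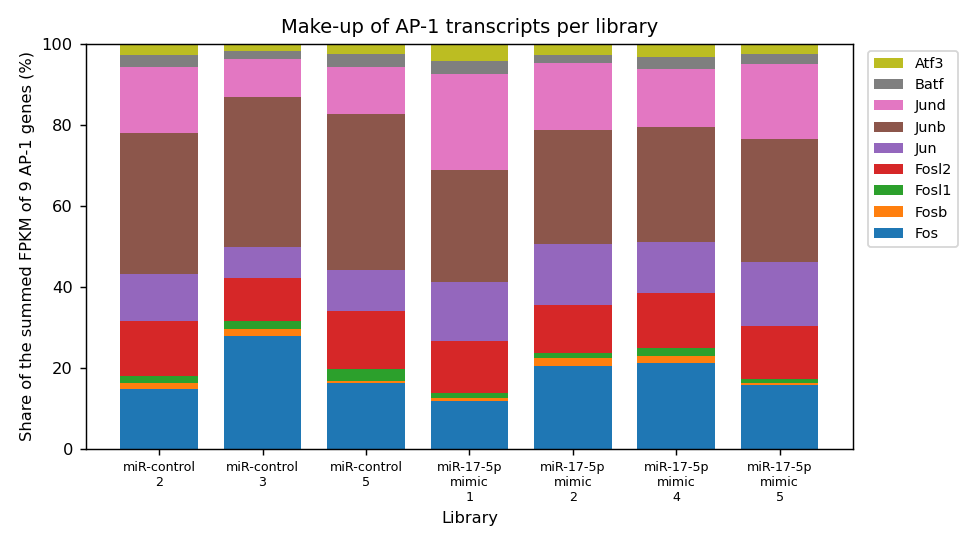
Share of each AP-1 gene, in percent, in the summed FPKM of the 9 genes, with 1 stacked bar per library. Junb is the largest segment in all 7 bars, at least 34.8% in each control and at most 30.3% in the mimic ankles.

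In control ankles the order of levels by mean was Junb, Fos, Fosl2, Jund, Jun, Batf, Atf3, Fosl1 and Fosb. The ranges of neighbours in this order overlapped, except that Jund lay above Jun and Jun above Batf in every control. In mimic ankles the order was Junb, Jund, Fos, Jun, Fosl2, Atf3, Batf, Fosb and Fosl1. There too the ranges of neighbours overlapped, except that all Junb values lay above those of Jund and all Fosl2 values above those of Atf3. Within each library, none the less, Junb exceeded every other AP-1 gene.

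Ratios between 2 AP-1 genes of the same library do not depend on how libraries are scaled. Of 36 pairs, which share members, 9 (25%) had ratios that did not overlap between the groups, where 15.7% of all pairs among 13392 tested genes without a 0 did not overlap. Jun or Junb was in 15 of the 36 pairs and in 7 of these 9. Junb exceeded Jund by 2.16, 3.89 and 3.32-fold in controls and by 1.15, 1.68, 2.01 and 1.64-fold in mimic ankles. Jun stood at 0.33, 0.21 and 0.26 of Junb in controls and at 0.54, 0.54, 0.43 and 0.52 in mimic ankles. Fosl2 exceeded Jun in every control, by 1.16 to 1.41-fold, and stood at 0.79 to 1.11 of Jun in mimic ankles. Batf exceeded Atf3 by 1.10 to 1.31-fold in controls and stood at 0.74 to 1.02 of Atf3 in mimic ankles. The sum of the Fos family relative to that of the Jun family overlapped, at 0.62 ± 0.14 in controls and 0.54 ± 0.13 in mimic ankles. These ratios were not tested, since the genes were chosen with results known, and ratios show only that levels stood in different proportion to each other.

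**Figure D5:**
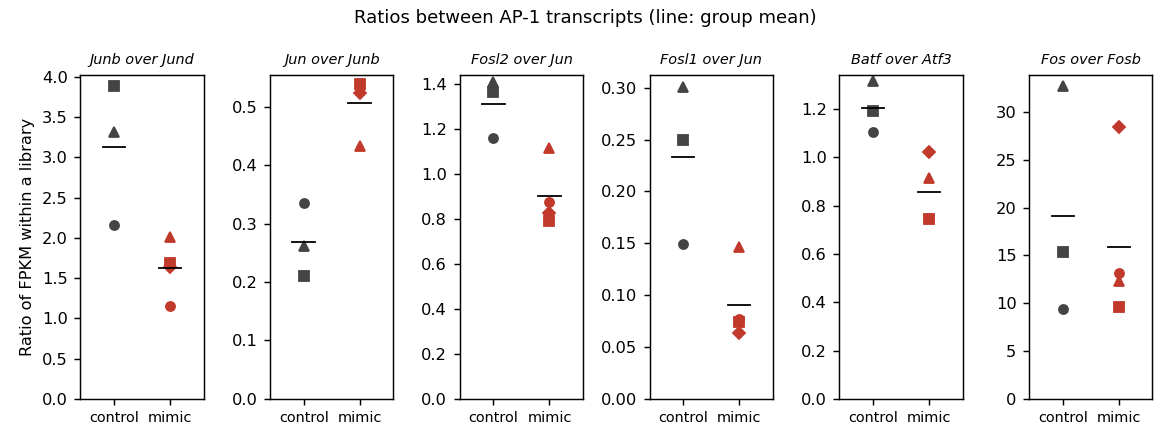
Ratios of FPKM between pairs of AP-1 genes within a library, with controls in grey, mimic ankles in red, a line at each group mean and a separate axis from 0 for each pair. The first 5 panels show no overlap between the groups, and Fos over Fosb, shown for contrast, overlaps.

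The libraries that were high or low differed between members. Control replicate 3 held the highest Fos, Fosb and Junb, and control replicate 5 the highest Fosl1, Fosl2 and Batf. Mimic replicate 1 held the lowest Fos, Fosl1, Fosl2, Jun and Junb. Fosl1 and Fosl2 ranked the 7 libraries in the same order. Jund and Jun were both highest in mimic replicate 2, and Jund was lowest in mimic replicate 4.

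The genes most like each member were picked among all genes tested, leaving out other members and provisional names (Gm, Rik, LOC and similar). They were ranked by Pearson's r of log2(FPKM + 0.5) over the 7 libraries, as a description of these libraries and both groups. For Fosl1 they were Snai1, a repressor of epithelial genes (r = 0.99), and Serpind1, heparin cofactor II (r = 0.99). For Fosl2 they were Arid5a, which stabilises Il6 messenger RNA (r = 0.98), and Gadd45g, a stress gene (r = 0.98). For Junb they were Nek7, a kinase of the inflammasome (r = 0.99), and Usp12, a deubiquitinase (r = 0.98). For Batf they were Ceacam16 and Ncl, nucleolin (r = 0.99 and 0.98), and for Fos they were Selp, the endothelial adhesion molecule P-selectin, and Rprd2 (r = 0.95 and 0.94). Arid5a stood at 9.65 FPKM in controls and 6.65 FPKM in mimic ankles, and Snai1 at 71.0 and 41.2 FPKM. Fosb was closest to Zfp36l1 and Eln, Jun to Mttp and Mob4, Jund to Pstk and U2af1l4, and Atf3 to Aqp2 and Aqp5 (r from 0.95 to 0.99).

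Other genes of the same DNA-binding class did not share a direction. Of 12 relatives, among them the Maf proteins, 11 were tested, with 2 lower and 2 higher in mimic ankles at an unadjusted p under 0.05 and a median log2 fold change of 0.030. Over all genes tested, 10.1% were lower and 7.48% higher at that mark. The 2 higher became 1 when any library other than mimic replicate 2 was left out. Maff, an inducible small Maf protein, stood at 6.83, 8.13 and 7.48 FPKM in controls and at 4.32, 5.05, 5.99 and 4.46 FPKM in mimic ankles (log2 fold change -0.56, limma adjusted p = 0.174). Jdp2, which pairs with Jun and acts in osteoclasts, stood at 48.2 ± 1.68 and 40.7 ± 1.88 FPKM (-0.24, limma adjusted p = 0.174), without overlap. Batf2, an interferon-induced relative of Batf, did not overlap either and was higher by mean, at 1.64 to 1.92 FPKM in controls and 2.06 to 3.34 FPKM in mimic ankles (0.49, limma adjusted p = 0.215).

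Upstream of the Fos and Jun genes act mitogen-activated kinases and promoter-bound factors. Of 27 such genes 26 were tested, with 5 lower and 1 higher at an unadjusted p under 0.05 and a median of -0.051. Over all genes tested, 10.1% were lower and 7.48% higher at that mark. Without control replicate 5 the counts of this list were 3 and 0, and without control replicate 2 they were 6 and 2. Map3k8, a kinase that relays Toll-like receptor and TNF signals, stood at 7.83, 11.3 and 9.73 FPKM in controls and at 7.12, 6.81, 6.99 and 6.26 FPKM in mimic ankles (-0.46, limma adjusted p = 0.176). Mapk11, a p38 kinase, and Map3k5, a stress kinase, had log2 fold changes of -0.28 and -0.31. Map3k8 passed over all genes without control replicate 2, the 1 gene of this list to do so. That fit called 1.5% of all genes lower.

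Among genes reported as AP-1 targets, 12 of 22 tested were lower at an unadjusted p under 0.05, against 10.1% of all genes tested. Of these 22 genes 0 were higher at that mark, against 7.48%, and 0 passed over all genes. Their median log2 fold change was -0.53. The groups did not overlap at 11 of these 22 genes, all lower, where 8.84% of all genes tested were lower without overlap. Mmp9, a gelatinase that osteoclasts also make, stood at 454, 475 and 497 FPKM in controls and at 316, 340, 369 and 338 FPKM in mimic ankles (-0.48, limma adjusted p = 0.173). Plau, the urokinase activator of plasminogen, stood at 53.6 ± 7.28 and 36.5 ± 2.56 FPKM, and Lif, a cytokine of the IL-6 family, at 10.2 ± 1.44 and 4.02 ± 1.57 FPKM. Many of these targets are also NF-kB or STAT targets, and the list was drawn up with earlier results of these libraries known. Without control replicate 2, 3 of them passed over all genes, Plau, Ccl2 and Cd44, in a fit that called 1.5% of all genes lower.

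The other immediate early genes share inducers with Fos, and 17 of those tested had lower means in mimic ankles, against 51.7% of all genes tested. Of 24 genes 21 were tested, with 8 lower and 0 higher at an unadjusted p under 0.05 and a median of -0.35. Over all genes tested, 10.1% were lower and 7.48% higher at that mark. The count lower in this list was 3 without control replicate 3 and 5 (with 1 higher) without mimic replicate 5, and 2 with the neutrophil covariate. Ier2 stood at 42.9, 58.3 and 43.0 FPKM in controls and at 28.6, 34.6, 29.6 and 28.4 FPKM in mimic ankles (-0.65, limma adjusted p = 0.173). Ier3, a survival gene, stood at 51.7 ± 9.33 and 30.1 ± 7.25 FPKM, and Btg2, an antiproliferative gene, at 24.7 ± 1.20 and 19.4 ± 2.79 FPKM, both without overlap. Heat shock genes had a median of -0.073 over 10 genes tested. At an unadjusted p under 0.05, 2 of them were lower, against 10.1% of all genes tested. They were Hspd1, a mitochondrial chaperone (-0.24), and Hsp90aa1 (-0.32). That count was 0 without control replicate 5, mimic replicate 1 or mimic replicate 2, and 1 without control replicate 3 or mimic replicate 5. Immediate early genes are known to respond to handling of tissue, and the part of dissection in these values was not tested.

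Osteoclasts need Fos to form. Osteoclast genes had a median log2 fold change of -0.28 over 11 genes tested, with 9 lower at an unadjusted p under 0.05. The share of all genes tested that were lower at that mark was 10.1%. Mmp9, 1 of these 9, is also among the AP-1 targets above, so the lists are not separate. Oscar, a receptor of osteoclasts, stood at 15.1, 17.2 and 18.3 FPKM in controls and at 12.4, 12.5, 13.5 and 12.3 FPKM in mimic ankles (-0.39, limma adjusted p = 0.173). Ocstamp, needed for osteoclast fusion, stood at 13.0 ± 0.75 and 9.68 ± 0.94 FPKM. Oscar passed over all genes without control replicate 2, in the fit that called 1.5% of all genes lower. Neither this list nor the other lists of AP-1 relatives held a gene that passed over all genes with the 7 libraries.

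AU-rich pentamers, found in many short-lived messenger RNAs, varied among the AP-1 genes, and 69.3% of 12615 genes held at least 1. In their 3 prime untranslated regions, Fos held 4 copies of ATTTA in 815 bases and Junb 2 in 485 bases, or 4.91 and 4.12 per kilobase, where the median of all these genes was 1.28. Jun held 4 in 1233 bases (3.24 per kilobase). Fosl2 held 8 in 4653 bases, close to the general density at 1.72 per kilobase, and Batf held 0 in 335 bases. Atf3 was at 2.53, Jund at 1.88 and Fosl1 at 1.57 per kilobase. Fosb, with 1 copy in 2302 bases (0.43 per kilobase), lay below the median. The longer TATTTAT was present in 7 of 9 AP-1 genes, all except Junb and Batf, against 29.7% of tested genes. Junb and Batf, without it, and Fosl1 and Fosl2, with it, all were lower in mimic ankles without overlap, so it was both present and absent among the 4 genes.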

How the data were processed

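The authors deposited FPKM (per the file headers) for each gene in 7 libraries, beside Entrez numbers, exon positions and summed exon lengths. STAR 2.5.2b, DESeq2 1.14.1, Subread, featureCounts and bcl2fastq 2.20 are listed in the submitters' processing notes without roles, as are mm10 and GRCm38. The strand setting and annotation release are not stated. Symbols came from a RefSeq gene table (GRCm38.p6), which matched 25275 of 27179 Entrez numbers. Multiplying FPKM by exon length and by each library's read total, which was recovered from the values, returned whole reads, to a tolerance of 0.01, for 100% of values.

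Differences were tested with limma 3.58.1 in R 4.3.3 (eBayes with a variance trend) on log2(FPKM + 0.5), for genes averaging 1 FPKM or more, with group as the single factor, 2-sided, Benjamini-Hochberg adjusted over all genes at 0.05. Fold changes on this scale understate the change of low genes. The model was tested on simulated data. The members, the 19 lists (243 entries, 1 without a match) and the rules were chosen with earlier results of these data known. Named genes were the 9 members, the 3 of smallest p per list, the 2 most abundant per cell type list (used as checks) and the 2 most like each member. Alternatives were other pseudocounts, filters, scalings, weights, covariates, limma-voom on reads, a replicate block and leaving out each library. Sequences came from RefSeq and GENCODE M21. Python 3.11.15, pandas 2.3.3 and matplotlib 3.10.9 were used.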

Additional observations from a re-analysis of the deposited data

Results flagged for a closer look

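Batf in mimic replicate 4, at 8.94 FPKM, stood apart from the other mimic libraries, which lay between 6.65 and 7.03 FPKM. Its gap to the nearest of them was 0.831 of the group's range, just above Dixon's critical value for 4 samples. Of the 9 AP-1 genes looked at in the mimic group this was the 1 such value, and chance gives about 1 in 20.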

How the results depend on the processing

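Over all genes the count called was 317 without control replicate 2, and it lay from 0 to 317 over the fits with 1 library left out, with 2 without mimic replicate 5. It was 1 with no filter on low values and 1 with the neutrophil covariate, and 0 in the other alternatives. For the AP-1 genes the count called lay from 0 to 1 with 1 library left out, and was 0 otherwise. Their median log2 fold change lay from -0.57 to -0.23 with 1 library left out and was negative in every alternative. Junb, Fosl1 and Batf were lower at an unadjusted p under 0.05 in 20 of 20 alternatives and Fosl2 in 19, the exception being the replicate block. Some signs turned. Fosb was 0.057 with the replicate block and 0.12 with neutrophil markers as covariate, and lay from -0.90 to 0.046 with 1 library left out. Atf3 was 0.073 with the muscle and 0.077 with the neutrophil covariate, and from -0.10 to 0.098 with 1 library left out (0.00023 without control replicate 2, 0.029 without control replicate 5). Jun lay from -0.0094 to 0.19 with 1 library left out. With the erythroid covariate, chosen after the data were seen, Fosb was -1.28. The median of the other AP-1-type genes, at 0.030, turned to -0.037 with a mean of at least 5 FPKM, -0.0032 with quantile normalization, -0.048 with the replicate block, -0.011 with muscle and -0.064 with erythroid markers as covariate. With 1 library left out it lay from -0.027 (mimic replicate 4) to 0.059, with -0.017 without control replicate 5. Leaving Batf and Atf3 out of the sum moved the share of Junb to 38.7% in controls and 30.4% in mimic ankles. The cause of these shifts was not tested. Replicate numbers 2 and 5 occur in both groups. The deviations of same-numbered libraries correlated at 0.54 for number 2 and -0.43 for number 5 over all genes tested. These values differ in sign and cannot tell whether the numbers pair the samples. With the number as a replicate block, 0 genes were called, Junb was -0.59, Fosl1 -1.25, Fosl2 -0.41, Batf -0.70 and Fos -0.050, and the AP-1 median was -0.25. Counts of list genes lower at an unadjusted p under 0.05 were then 2 upstream, 5 of the osteoclast genes and 0 of the heat shock genes. The heat shock count was also 0 with the muscle and erythroid terms.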
